A study of Mus musculus with 6 samples.

Results

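The stefin A genes of the mouse form a cluster on chromosome 16, and 5 of them were examined in RNA of neutrophils from the dura mater, the tough outermost membrane around the brain. These were Stfa1 (ENSMUSG00000071562), Stfa2 (ENSMUSG00000022902), Stfa2l1 (ENSMUSG00000059657), Stfa3 (ENSMUSG00000054905) and Gm5483 (ENSMUSG00000079597, now named Cstdc4). They were taken by symbol as 5 of 21955 genes in the count files, and they were selected on their log2 CPM in the same 6 libraries, with the difference between the groups known, so all comparisons of their levels between the groups describe these libraries and carry no test. The mice were wild type (WT) and had been exposed to a social threat, and poly-A RNA was sequenced from 3 female-labelled and 3 male-labelled libraries. No library came from unexposed mice, and the labels give no age, strain, pooling or sorting gate.

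Stefins are small cytosolic proteins of the cystatin superfamily that block papain-like cysteine proteases, above all the lysosomal cathepsins B, H, L and S, by sitting in the active site cleft. Humans carry a single stefin A gene, whereas the mouse locus has expanded into a cluster of closely related copies. In mice several of the copies are transcribed in maturing neutrophils, and stefin A is also known from the skin, where it belongs to the cornified envelope of keratinocytes.

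The copies resemble each other closely enough that sequencing reads can fall on more than one of them, so their sequences are given before their levels. The last 60 coding bases before the stop codon, from GENCODE transcripts of chromosome 16, show how far the members can be told apart. Capitals mark bases that differ from Stfa2l1 at the same place.
Stfa2l1: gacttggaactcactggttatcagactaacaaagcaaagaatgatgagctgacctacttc
Stfa2: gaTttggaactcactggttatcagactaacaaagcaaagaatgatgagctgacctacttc
Gm5483: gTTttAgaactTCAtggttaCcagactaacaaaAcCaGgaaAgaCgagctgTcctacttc
Stfa3: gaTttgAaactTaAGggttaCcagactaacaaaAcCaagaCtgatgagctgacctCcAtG
Stfa1: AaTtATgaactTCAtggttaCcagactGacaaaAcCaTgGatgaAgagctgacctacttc

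In that stretch Stfa2 differed from Stfa2l1 at 1 base, Stfa3 at 12, Gm5483 at 13 and Stfa1 at 14. Over the whole coding sequence Stfa2 and Stfa2l1 were 96.4% identical. The other 9 pairs were between 76.6% and 82.6% identical, so Stfa2 and Stfa2l1 stand out as a close pair. Of all stretches of 50 bases in the transcripts, 24.6% of those of Stfa2l1 and 15.9% of those of Stfa2 also occurred in a transcript of another gene, and these other genes included the partner of the pair. For Gm5483 the share was 35.6%, all with 2010005H15Rik, and for Stfa1 it was 26.9%, with BC100530 among others. Stfa3 shared none. With stretches of 100 bases Stfa2, Stfa2l1 and Stfa3 shared none, Gm5483 shared 11.1% and Stfa1 5.6%. No source used here states how reads that match several genes were counted, so the split between Stfa2 and Stfa2l1 is uncertain, and the sum over the members is given beside their single values.

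The promoters of the 5 genes also resembled each other, and they are shown because all 5 transcripts averaged higher in the same group of libraries. The 80 bases before each start site come from RefSeq on the older build GRCm38.p6, 5′ to 3′ on the gene's strand. The counts were made on GRCm39, and no position is compared between the builds. The windows are chr16:36156731-36156810 on the plus strand for Stfa2l1, chr16:36184132-36184211 (plus) for Gm5483, chr16:36277068-36277147 (plus) for Stfa1, chr16:36455393-36455472 (minus) for Stfa3 and chr16:36408364-36408443 (minus) for Stfa2. Capitals mark the motif CTTTAAAA.
Stfa2l1: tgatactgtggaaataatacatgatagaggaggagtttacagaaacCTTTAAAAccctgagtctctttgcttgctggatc
Gm5483: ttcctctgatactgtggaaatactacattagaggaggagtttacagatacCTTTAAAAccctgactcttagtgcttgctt
Stfa1: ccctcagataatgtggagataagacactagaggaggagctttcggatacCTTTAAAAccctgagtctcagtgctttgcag
Stfa3: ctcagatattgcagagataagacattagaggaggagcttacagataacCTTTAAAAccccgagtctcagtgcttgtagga
Stfa2: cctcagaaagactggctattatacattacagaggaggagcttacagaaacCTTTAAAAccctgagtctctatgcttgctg

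CTTTAAAA began 30 to 34 bases before the start in all 5 genes, and the promoter of each also held GAGGAGGAG. Both motifs were chosen after the sequences had been read. Searched on both strands in the 250 bases before the start, CTTTAAAA was found in 2.36% and GAGGAGGAG in 2.75% of 32851 mouse promoters. The purine-rich GAGGAA, a sequence that the myeloid factor PU.1 can bind, stood in the 250 bases before the start of all 5 genes, mostly outside the stretches printed above, and in 23.3% of promoters, and TATAAA stood in none of the 5 and in 12.4% of promoters. Across the 250 bases the promoters of Stfa2 and Stfa2l1 were 92.3% identical, and the other pairs between 70.8% and 85%. Because the promoters resemble each other, a motif found in all 5 does not count as 5 independent matches. TTGCNNAA was also searched, and stood in Stfa1 alone among the 5 and in 9.56% of promoters. TTCNNNGAA stood in Gm5483 alone among the 5 and in 7.02% of promoters. These matches describe letters and no binding was measured.

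The libraries held 17098026 to 20778410 counts each. Levels are CPM, counts of a gene relative to the library's total after scaling by trimmed means (TMM). Genes of the Y chromosome, read as a check of the labels, had a summed level over 4 genes of 312 to 328 CPM in the female-labelled libraries and 307 to 318 CPM in the male-labelled libraries, which goes against the label female, so each direction below holds between libraries so labelled and not between the sexes. The neutrophil genes S100a9 (19052 ± 2431 CPM in the female-labelled libraries, 15660 ± 1086 CPM in the male-labelled libraries) and Ngp (18028 ± 2426 CPM in the female-labelled libraries, 16602 ± 862 CPM in the male-labelled libraries) were abundant in both groups (SD, n = 3 each). Nothing in the labels says that the libraries came from separate animals, so the spread between them may be technical. In bulk RNA, fewer cells with a transcript and less of it per cell cannot be told apart.

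All 5 genes averaged higher in the female-labelled libraries, by 3.47-fold for Gm5483, 2.99-fold for Stfa2, 2.59-fold for Stfa2l1, 1.83-fold for Stfa3 and 1.21-fold for Stfa1. In 3 of the 5 every female-labelled library lay above every male-labelled library, an order found in 15.9% of all 11903 genes that passed the filter on low counts. All 5 members passed that filter. Their median log2 fold change was 1.37, against 0 over all genes tested. Counted from the gene most raised in the female-labelled libraries, with genes lower there ranked last, Gm5483 ranked 6, Stfa2 10, Stfa2l1 24, Stfa3 94 and Stfa1 1074 among the 11903 genes. The members were chosen with these differences known, so neither the count nor the median is evidence for them.

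**Figure D1:**
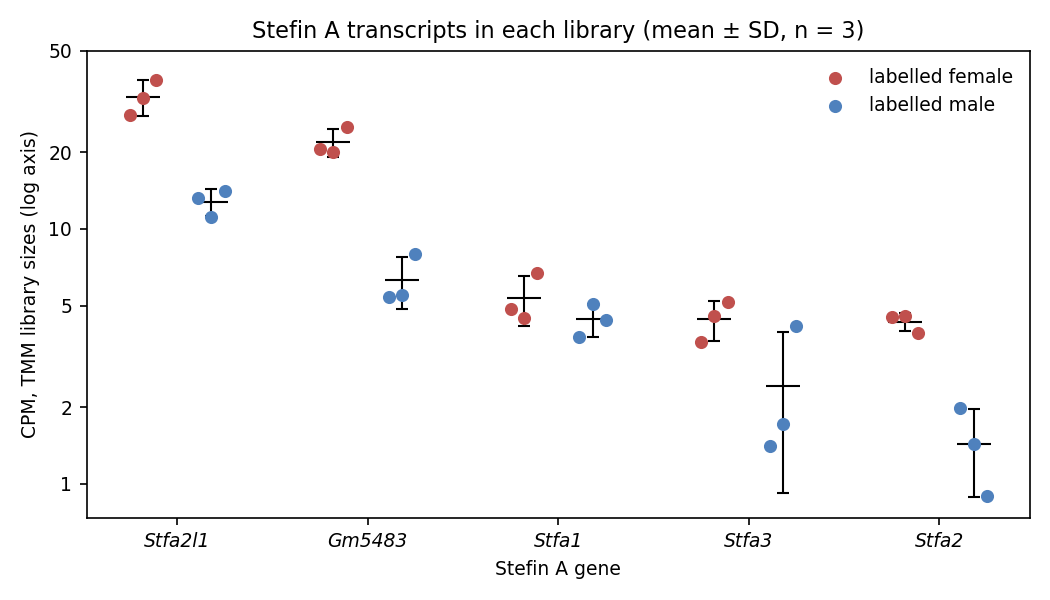
Level of each stefin A gene in CPM on a log axis, with 1 point per library and black bars for mean ± SD (n = 3 per group; red, labelled female; blue, labelled male). Stfa2l1, Gm5483 and Stfa2 separate the groups, whereas the points of Stfa1 and Stfa3 overlap.

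Stfa2l1, the most abundant member, had 28, 32.7 and 38.4 CPM in female replicates 1, 2 and 3, against 13.2, 11.1 and 14.1 CPM in male replicates 1, 2 and 3. The groups stood apart, with the lowest female-labelled library 1.99 times the highest male-labelled one. The means were 33.0 ± 5.23 CPM in the female-labelled libraries and 12.8 ± 1.54 CPM in the male-labelled libraries, a log2 difference of 1.37 (SE 0.12, from the fit over all genes). With 1952 counts in the female-labelled libraries and 663 in the male-labelled libraries, this gene had the smallest counting error of the family.

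Gm5483 had 20.5, 20.1 and 25 CPM in the female-labelled libraries, against 5.42, 5.53 and 7.98 CPM in the male-labelled libraries. It had the widest gap between the groups, the lowest female-labelled library being 2.51 times the highest male-labelled one. The means were 21.9 ± 2.72 CPM in the female-labelled libraries and 6.31 ± 1.45 CPM in the male-labelled libraries, and the log2 difference was 1.79 (SE 0.15). In both groups replicate 3 had the highest value of Gm5483 and of Stfa2l1.

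Stfa2 was scarcer, at 4.50, 4.54 and 3.92 CPM in the female-labelled libraries and 1.98, 1.43 and 0.893 CPM in the male-labelled libraries. These values rest on 85, 90 and 79 counts in the female-labelled libraries and on 35, 25 and 15 counts in the male-labelled libraries. The groups did not overlap, and the log2 difference was 1.58 (SE 0.27). The 15 counts of male replicate 3 have a 95% Poisson interval of 8.4 to 24.7 counts, which covers counting error only. The male-labelled libraries varied by 37.8% of their mean, where counting alone would give 20%. The female-labelled libraries varied by 8.02% of their mean, less than the 10.9% that counting alone would give, so their order is within counting error. In the male-labelled libraries replicate 3 was lowest for Stfa2 and highest for its near copy Stfa2l1.

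Stfa3 had 3.60, 4.54 and 5.16 CPM in the female-labelled libraries, against 1.41, 1.71 and 4.17 CPM in the male-labelled libraries. Male replicate 3, with 70 counts against 25 and 30 in male replicates 1 and 2, lay inside the range of the female-labelled libraries, so the groups overlapped. The means were 4.43 ± 0.786 CPM in the female-labelled libraries and 2.43 ± 1.51 CPM in the male-labelled libraries, with a log2 difference of 0.87 (SE 0.31). Without male replicate 3 that difference was 1.5 (SE 0.29). Male replicate 3 was thus the highest of its group for Stfa3, Stfa2l1 and Gm5483 and the lowest for Stfa2.

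Stfa1 differed least. It had 4.87, 4.49 and 6.70 CPM in the female-labelled libraries and 3.78, 5.08 and 4.41 CPM in the male-labelled libraries, and male replicate 2 exceeded 2 of the female-labelled libraries. The means were 5.35 ± 1.18 CPM in the female-labelled libraries and 4.42 ± 0.646 CPM in the male-labelled libraries, a difference within the spread between libraries (log2 difference 0.28, SE 0.20). Without female replicate 3 the log2 difference was 0.08 (SE 0.23).

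A sum over the 5 genes does not depend on how reads shared only among them were divided. Shared reads that were left uncounted, or given to genes outside the 5, would still change it. The summed level was 61.5, 66.3 and 79.2 CPM in the female-labelled libraries and 25.8, 24.8 and 31.5 CPM in the male-labelled libraries. The groups did not overlap. The means were 69.0 ± 9.17 CPM from 4074 counts in the female-labelled libraries and 27.4 ± 3.63 CPM from 1420 counts in the male-labelled libraries, and the log2 difference of the sum was 1.34 (SE 0.10). With the other stefin A-like genes added to the sum it was 1.32.

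The family did not shift evenly. Stfa2l1 made up 47.8 ± 1.99% of the counts of the 5 genes in the female-labelled libraries and 46.8 ± 3.75% in the male-labelled libraries. Gm5483 made up 33.4%, 30.3% and 31.6% in the female-labelled libraries, against 21.1%, 22.3% and 25.3% in the male-labelled libraries. Stfa1 went the other way, with 7.92%, 6.77% and 8.45% in the female-labelled libraries, against 14.7%, 20.5% and 14.0% in the male-labelled libraries. The shares of Gm5483 and of Stfa1 did not overlap between the groups, whereas those of Stfa2l1, Stfa2 and Stfa3 did. Per count of Stfa2l1 there were 0.614 to 0.733 counts of Gm5483 in the female-labelled libraries and 0.412 to 0.568 in the male-labelled libraries. For Stfa1 the same ratio was 0.137 to 0.174 in the female-labelled libraries and 0.288 to 0.459 in the male-labelled libraries. Shares of 1 sum are tied to each other, so a larger share of 1 gene lowers the others.

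**Figure D2:**
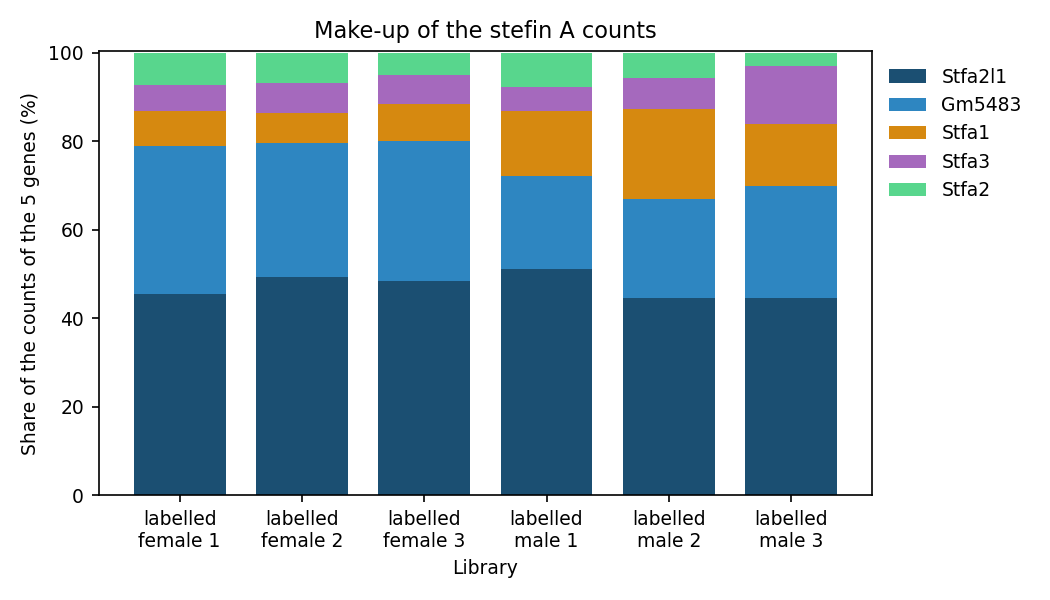
Share of each gene in the summed counts of the 5 stefin A genes, in percent, with 1 bar per library (female-labelled libraries left, the male-labelled libraries right). The share of Gm5483 is 30.3% to 33.4% in the female-labelled libraries and 21.1% to 25.3% in the male-labelled libraries, and that of Stfa1 is 6.77% to 8.45% in the female-labelled libraries and 14.0% to 20.5% in the male-labelled libraries.

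Levels of different genes were compared per kilobase of the longest coding transcript (RPKM). In the female-labelled libraries Stfa2l1 came first at 78.8 ± 12.5 RPKM, followed by Gm5483 at 52.8 ± 6.58 RPKM. Stfa3 (10.8 ± 1.91 RPKM), Stfa2 (9.17 ± 0.735 RPKM) and Stfa1 (8.67 ± 1.91 RPKM) followed with overlapping values. In the male-labelled libraries the level of Stfa2l1 was 30.5 ± 3.67 RPKM and that of Gm5483 15.2 ± 3.50 RPKM, and their libraries did not overlap. Below them came Stfa1 (7.17 ± 1.05 RPKM), Stfa3 (5.90 ± 3.67 RPKM) and Stfa2 (mean 3.04 RPKM, range 1.90 to 4.20 RPKM). Stfa3 overlapped with both of its neighbours, while every male-labelled library had more Stfa1 than Stfa2 per length. The shorter annotated transcript of Stfa1 would raise its values. The transcripts used were 412 to 617 bases long, close to the 400 to 500 bases for which the labels say library fragments were selected, and the part of fragment length in these levels was not tested.

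The other stefin A-like genes of the cluster were at or near the limit of detection, and none of the 5 with a row passed the filter. BC100530 had 7, 13 and 11 counts in the female-labelled libraries and 8, 6 and 7 in the male-labelled libraries. Gm5416 had 15 counts in all, 9 of them in male replicate 1, and 2010005H15Rik had 11, of which 10 were in the female-labelled libraries. Csta1 and BC117090 had 3 and 2 counts in all. Together these genes took 0.684% to 1.5% of all stefin A-like counts in the female-labelled libraries and 1.49% to 3.59% in the male-labelled libraries. Since 2010005H15Rik shares 50-base stretches with Gm5483, its few counts and those of Gm5483 cannot be told apart by such stretches.

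Genes of the same pathway were read from lists chosen with the earlier results known, and were tested in the fit over all genes. There 7.29% of genes were higher and 6.62% lower in the female-labelled libraries (edgeR's quasi-likelihood test, Benjamini-Hochberg adjusted p under 0.05). The share of all genes at an unadjusted p under 0.05 was not determined. Counts of list members at that threshold therefore only describe the lists. None of the other cystatins was higher in the female-labelled libraries by edgeR, DESeq2 or limma-voom, nor at an unadjusted p under 0.05 by edgeR. Of 15 listed cystatins 3 passed the filter and 8 had no count in any library. Stefin B (Cstb), the other cytosolic stefin, had 55.0 ± 3.07 CPM in the female-labelled libraries and 55.2 ± 3.08 CPM in the male-labelled libraries (log2 difference -0.01, SE 0.07, adjusted p = 0.966). Cystatin F (Cst7), which acts inside the endosomes and lysosomes of immune cells, had 55.4 ± 5.92 CPM in the female-labelled libraries and 62.1 ± 5.09 CPM in the male-labelled libraries (adjusted p = 0.197). The secreted cystatin C (Cst3) was lower, at 362 ± 25.7 against 415 ± 26.1 CPM in the male-labelled libraries (log2 difference -0.19, adjusted p = 0.0463). That call was lost without any single library other than female replicate 3 (adjusted p = 0.156 and 0.157 without female replicates 1 and 2, and 0.26, 0.0836 and 0.0939 without male replicates 1, 2 and 3).

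Of 10 papain-like cathepsins, the proteases that stefins inhibit, 1 was higher, 1 lower and 8 did not pass the test. The list's median log2 difference was -0.10, against 0 over all genes. Ctsc, the cathepsin that activates the serine proteases of neutrophil granules, was higher at 488, 497 and 462 CPM in the female-labelled libraries (482 ± 18 CPM), against 401 ± 9.48 CPM in the male-labelled libraries (1.20-fold, SE 0.06 on the log2 scale, adjusted p = 0.00268). Ctsl, a main target of stefin A, was lower at 115 ± 10.2 CPM, against 134 ± 6.73 CPM in the male-labelled libraries (log2 difference -0.21, SE 0.07, adjusted p = 0.0417). The Ctsl call was lost without female replicate 1 (adjusted p = 0.203) or 2 (0.0746) and without male replicate 1 (0.167), 2 (0.0529) or 3 (0.177). Without female replicate 3, 3 cathepsins were lower, with Ctsh and Ctsz beside Ctsl. The most abundant cathepsins, Ctsb (604 ± 14.6 CPM in the female-labelled libraries, 628 ± 17.2 CPM in the male-labelled libraries; adjusted p = 0.563) and Ctss (481 ± 25.9 CPM in the female-labelled libraries, 493 ± 19.7 CPM in the male-labelled libraries; adjusted p = 0.748), did not pass.

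**Figure D3:**
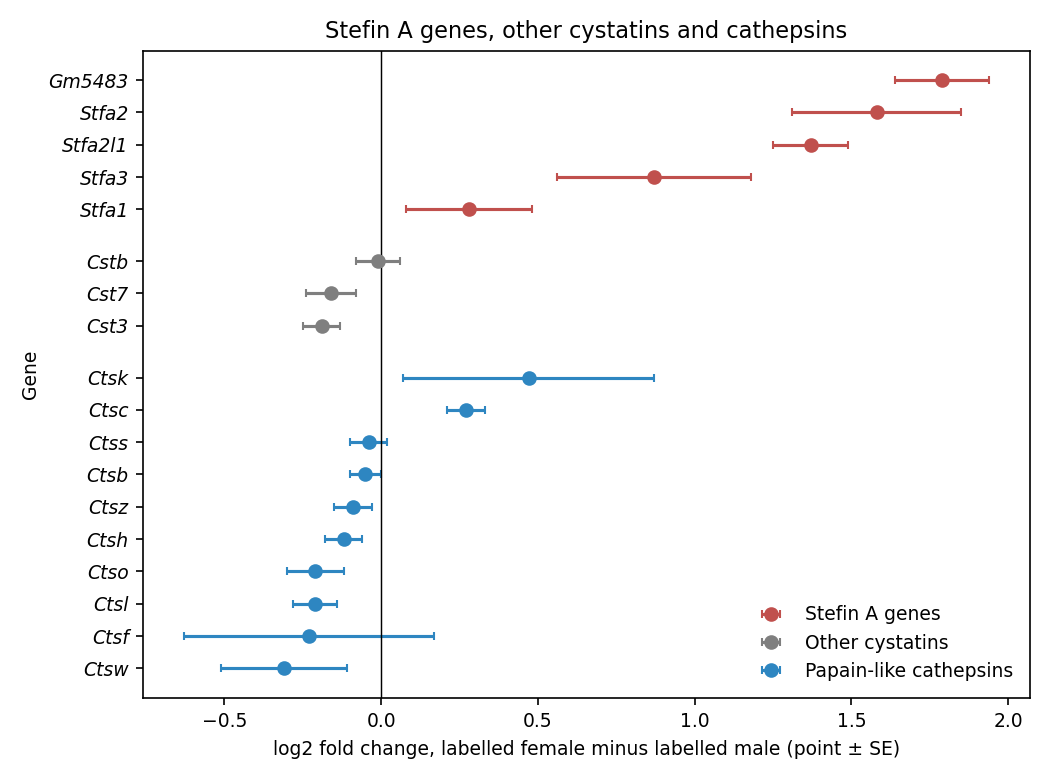
Log2 fold change, female-labelled libraries minus the male-labelled libraries, with its SE (horizontal bars, from the fit over 6 libraries) for the 5 stefin A genes, the 3 other cystatins and the 10 papain-like cathepsins that passed the filter. The stefin A genes run from 0.28 to 1.79, the other cystatins from -0.19 to -0.01 and the cathepsins from -0.31 to 0.47.

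Among 10 other cysteine protease genes, including calpains and the calpain inhibitor calpastatin (Cast), Capn1 was higher, at 125 ± 13.9 CPM in the female-labelled libraries against 108 ± 3.45 CPM in the male-labelled libraries (adjusted p = 0.0454). By limma-voom it missed the threshold (adjusted p = 0.0537), as it did with a filter of 10 CPM in 3 libraries (0.0531) and without any single library other than female replicate 2 (adjusted p = 0.101 without female replicate 1, 0.0725 without female replicate 3, and 0.167, 0.139 and 0.096 without male replicates 1, 2 and 3). The most abundant genes of that list were Capns1, the small calpain subunit (257 ± 25 CPM in the female-labelled libraries, 241 ± 7.14 CPM in the male-labelled libraries; adjusted p = 0.38), Cast (191 ± 12.5 CPM in the female-labelled libraries, 178 ± 6.49 CPM in the male-labelled libraries; adjusted p = 0.323) and Capn1 itself. None of 4 granule serine proteases passed by edgeR, DESeq2 or limma-voom, with 1 at an unadjusted p under 0.05 by edgeR. Elane, the neutrophil elastase gene, had 886 ± 56.1 CPM in the female-labelled libraries and 928 ± 10.1 CPM in the male-labelled libraries. Prtn3, the proteinase 3 gene, had 820 ± 51.0 CPM in the female-labelled libraries and 802 ± 13.3 CPM in the male-labelled libraries. Ctsg, the cathepsin G gene, had 545 ± 38.9 CPM in the female-labelled libraries and 496 ± 7.38 CPM in the male-labelled libraries. Without female replicate 3 Ctsg was higher (adjusted p = 0.00191).

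Of 19 serpins and other protease inhibitors of myeloid cells, 14 passed the filter and 4 were higher. Timp2, an inhibitor of metalloproteases, had 58.5 ± 2.49 CPM in the female-labelled libraries and 36.6 ± 3.87 CPM in the male-labelled libraries (1.60-fold, adjusted p = 5.29e-06). Slpi, a secreted inhibitor of neutrophil elastase, had 146 ± 13.8 CPM in the female-labelled libraries and 114 ± 4.30 CPM in the male-labelled libraries (1.28-fold, adjusted p = 0.00113). Reck (1.26-fold, adjusted p = 0.0373) and Wfdc17 (1.21-fold, adjusted p = 0.0316) were also higher. Neither of these passed without female replicate 3 (adjusted p = 0.114 for Reck and 0.0877 for Wfdc17), male replicate 1 (0.169 and 0.0726), male replicate 2 (0.0657 and 0.149) or male replicate 3 (0.0752 and 0.0798). The most abundant, Serpinb1a (629 ± 26.9 CPM in the female-labelled libraries, 586 ± 9.92 CPM in the male-labelled libraries; adjusted p = 0.254) and Wfdc21 (316 ± 49.1 CPM in the female-labelled libraries, 274 ± 15.2 CPM in the male-labelled libraries; adjusted p = 0.0979), did not pass. By edgeR Wfdc21 was called higher without the filter (adjusted p = 0.00751), with the replicate number as a block (0.0413) and without female replicate 2 (0.0221).

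The genes nearest to the summed stefin A level were sought by the root mean square difference of log2 CPM, centred on each gene's mean, over the 6 libraries among 11898 genes outside the family. The nearest was Retnlg, a resistin-like gene of mature neutrophils also on chromosome 16, at a difference of 0.077. It had 1814, 1753 and 2143 CPM in the female-labelled libraries and 788, 743 and 871 CPM in the male-labelled libraries. Next came Gpr27, an orphan receptor (0.099), Asprv1, an aspartic protease (0.108), Cd101, a surface protein of mature neutrophils (0.136), Slc4a1, the anion exchanger of red cells (0.150), and Il1r2, the decoy receptor of interleukin 1 (0.156). Gpr27 had 18.7, 19.8 and 21.7 CPM in the female-labelled libraries, against 7.17, 6.27 and 7.98 CPM in the male-labelled libraries. Slc4a1 was scarce, at 1.85, 2.72 and 2.53 CPM in the female-labelled libraries and 0.847, 0.798 and 1.19 CPM in the male-labelled libraries. By the same measure Stfa2l1 lay at 0.075 from the sum to which it gives the largest part, with no gene outside the family as near, and Gm5483 at 0.246, with 29 genes as near or nearer. Stfa3 lay at 0.406, Stfa2 at 0.454 and Stfa1 at 0.570, with 123, 193 and 1023 genes as near or nearer. The likeness follows the difference between the groups that was known when the family was chosen.

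**Figure D4:**
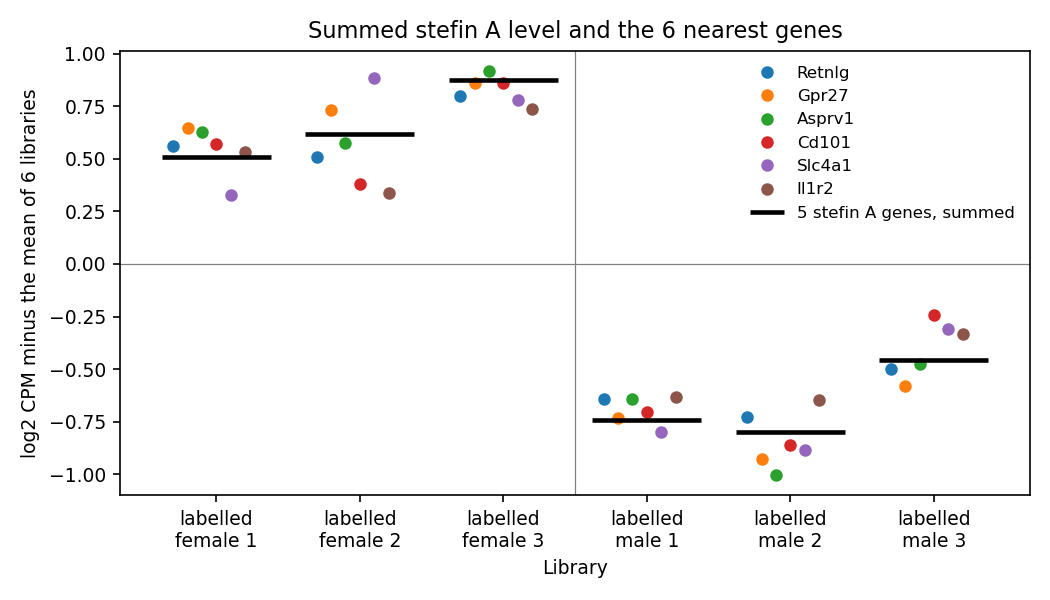
Log2 CPM in each library minus the mean of the 6 libraries, for the 5 stefin A genes summed (black bars) and the 6 genes nearest to that sum (points). All 7 lie above 0 in the female-labelled libraries and below 0 in the male-labelled libraries.

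Marker transcripts of neutrophils and of some other cells also differed between the groups, and their part in the stefin A values was not tested. For comparison, 7.29% of all genes tested were called higher and 6.62% lower in the female-labelled libraries. Of 12 neutrophil genes 9 were higher in the female-labelled libraries, among them Ly6g (1.42-fold, adjusted p = 0.000269) and S100a9 (1.22-fold, adjusted p = 0.0284), with a summed level of 63912 to 82362 CPM against 56927 to 62974 CPM in the male-labelled libraries. Of these 12 genes Retnlg (2.38-fold) and Mmp8 (1.95-fold), a collagenase of neutrophil granules, had the highest fold changes. Epithelial genes summed to 20 to 24.1 CPM in the female-labelled libraries and 27.2 to 30.2 CPM in the male-labelled libraries, most of it Cdh1, the only 1 of 4 that passed the filter to be called (lower, adjusted p = 0.00793). Of the 11 genes of that list Krt1, Krt5, Krt14 and Sprr1a had no count in any library, while over all 6 libraries Krt18 had 330 counts, Dsp 317, Epcam 79, Krt10 37, Krt8 16 and Ivl 7. Of 7 dendritic cell genes, led by Siglech, 5 were lower in the female-labelled libraries (summed level 207 to 214 CPM, against 297 to 312 CPM in the male-labelled libraries). Of 6 erythroid genes, led by Hbb-bs, 3 were higher. The summed level of that list was 33.6 to 64.2 CPM in the female-labelled libraries, against 18.3 to 23.8 CPM in the male-labelled libraries. Of 9 macrophage and monocyte genes 2, Ccr2 and Adgre1, were higher (summed level of the list 2333 to 2391 CPM, against 2089 to 2157 CPM in the male-labelled libraries). Ccr2 had 879 CPM in the female-labelled and 613 CPM in the male-labelled libraries. The most abundant of them, Ly6c2, was not called by edgeR (1126 CPM in the female-labelled libraries, 1160 CPM in the male-labelled libraries, adjusted p = 0.692). Mast cell and basophil genes, led by Mcpt8, had 0 of 5 called by edgeR and 1 at an unadjusted p under 0.05. All 7 genes of that list summed to 282 to 314 CPM in the female-labelled libraries and 297 to 334 CPM in the male-labelled libraries. Of 7 T and NK cell genes 1, Cd4, was lower (mean 8.99 CPM in the female-labelled libraries, 13.2 CPM in the male-labelled libraries). The summed level of that list was 32.3 to 45 CPM in the female-labelled libraries and 38.7 to 46.7 CPM in the male-labelled libraries. Of 5 fibroblast and endothelial genes that passed the filter, led by Pecam1, 0 were called by edgeR and 3 were lower at an unadjusted p under 0.05. All 9 genes of that list summed to 54.2 to 65.2 CPM in the female-labelled libraries and 69 to 73.9 CPM in the male-labelled libraries. No share of all genes at the unadjusted threshold is at hand to set beside such counts. Mitochondrially encoded transcripts took 6.42% to 8.49% of counts in the female-labelled libraries and 10.7% to 13.1% in the male-labelled libraries. With those transcripts left out of the counts the log2 difference of the summed stefin A genes was 1.33.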

How the data were processed

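Poly-A RNA of dural neutrophils was sequenced on an Illumina NovaSeq from 6 libraries, per the labels' protocols, and no strand-marking step is named there. The submitters' processing notes list cutadapt 1.15, HISAT2 2.0.5 and the build GRCm39, without their roles. The authors deposited raw counts per gene for 21955 Ensembl identifiers, not normalized. No source used here names the counting tool or says how it treated strand and shared reads. Symbols came from GENCODE M21 (GRCm38), which named 21847 identifiers, and promoters from RefSeq.

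Counts were fitted over all genes with edgeR 4.0.16 in R 4.3.3 (TMM, filterByExpr at 10 counts, quasi-likelihood test, Benjamini-Hochberg adjustment, threshold 0.05, group as the only term), which kept 11903 genes. The code was tested on simulated counts. Fold changes are female-labelled libraries over the male-labelled libraries, and SEs come from the change and its F statistic. No 2 libraries of the same group were copies: chi-square between pairs within a group, divided by its degrees of freedom, was 4.19 to 17.4. Pairs across the groups were not compared in this way. Alternatives were DESeq2 size factors, DESeq2 1.42.0, limma-voom (limma 3.58.1), other filters, each library left out, the replicate number as a block and, chosen after seeing the data, counts without mitochondrially encoded genes.

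The members and lists were chosen with earlier results of these data known. Genes named are the members, their measured relatives, in the protease and inhibitor lists the called and the 3 most abundant genes, the 6 nearest genes and the leading genes of marker lists; others illustrate a list and were picked with their values in view. Cxcr2 and Trac had no row in the files used. Proteins of the family are not shown. The result of a further marker list is not reported here.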

Additional observations from a re-analysis of the deposited data

How the results depend on the processing

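The log2 fold changes of the 5 stefin A genes kept their sign under each alternative that gave a value. With 1 library left out they ranged from 1.25 to 1.48 for Stfa2l1, 1.69 to 2.00 for Gm5483, 1.34 to 1.89 for Stfa2, 0.60 to 1.5 for Stfa3 and 0.08 to 0.39 for Stfa1, and from 1.23 to 1.45 for their sum. The filter of 10 CPM in 3 libraries left out Stfa1, Stfa2 and Stfa3. Under the other alternatives the sum lay between 1.32 and 1.35.

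Counts of called genes depended on single libraries. With 1 left out, 439 to 1439 genes were higher and 467 to 1269 lower, against 868 and 788 with all 6. Both highest counts came without female replicate 3 and both lowest without male replicate 3. In the lists, with 1 library left out, the number of cathepsins lower ran from 0 to 3, of cystatins lower from 0 to 1, of other cysteine proteases higher from 0 to 1, of serpins and other inhibitors higher from 2 to 5 and lower from 0 to 1, and of serine proteases higher from 0 to 1. With limma-voom, and with the filter of 10 CPM in 3 libraries, 0 other cysteine proteases were higher. Without a filter, and with the replicate block, 1 inhibitor, Serpina3f, was lower, and Wfdc21 was also called higher. The cause of these shifts was not tested, and a fit to 5 libraries has fewer samples. Whether the replicate numbers pair the libraries is not known. Deviations of same-numbered libraries had correlations of -0.04, 0.06 and 0.06, and those of other pairs ran from -0.14 to 0.09. Deviations from means of 3 libraries cannot exclude a pairing. With the replicate block 1007 genes were higher and 914 lower, and the sum had a log2 difference of 1.33 (SE 0.08, against 0.10 without the block). Stfa2 rests on 15 to 90 counts per library, which limits its precision.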
